A study of Rattus norvegicus with 5 samples.

Results

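Genes of the proteasome and of ubiquitin attachment and removal were followed in rat lung over 5 one-colour oligonucleotide arrays, 1 per group. The members are all genes whose single symbol in the platform annotation begins with Psma, Psmb, Psmc, Psmd, Psme, Ube, Usp or Uch, without Psmb8 and Psmb9; this gave 41 of 4736 genes with a single symbol, read by 68 probe sets. Of the 41, 25 carry a Psm symbol and are called proteasome genes here, 12 carry an Ube symbol and 4 an Usp or Uch symbol. Groups by role were formed from the symbols alone. Another 7 probe sets of these families carry several symbols and were left out of all counts. Every array received a pool of equal amounts of lung RNA, over times or, for the untreated array, over rats. The early, intermediate and late arrays held RNA from rats given EHC-93, an urban particulate dust, by instillation into the trachea, taken at 2, 4 and 6 h, at 15, 18 and 21 h and at 24, 32 and 40 h. The sham array held RNA taken 2, 15 and 24 h after instillation of saline, so no exposed pool has a saline control at all of its own times. The untreated array held RNA of 3 rats that were not instilled. None of the sources used here gives strain, sex, age, dose or the number of instilled rats. Since each group has 1 array, no replicate stands behind a difference between single arrays.

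The proteasome is the large protease complex that degrades proteins tagged with ubiquitin. Its 20S core is a barrel of alpha rings, which gate entry, around beta rings, which hold the cutting sites; the 19S cap binds tagged proteins, and its ATPases unfold and feed them into the core. Ubiquitin is attached through activating, conjugating (E2) and ligating (E3) enzymes and is taken off by deubiquitinases, while PA28 and PA200 are activators that can open the core without the 19S cap. In many cells, genes of the subunits are raised together by the transcription factor Nrf1 (Nfe2l1) when proteasome capacity is short, and interferon-gamma raises PA28 and the immunoproteasome subunits.

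Intensities were scaled to the same median on all arrays and raised to a floor of 172.53 (their 40th percentile) where lower; a fold against a value under the floor is written as "at least". Each gene was read by whichever of its probe sets had the highest mean of log2 intensity. Of the 41 members, 39 exceeded the floor on 1 array or more and 34 on all 5. The E2 genes Ube2d2b and Ube2m were under the floor on all arrays. Ube2e3, Ube2h and Uchl1 passed only through exposed arrays, so they could not lie below the controls. The 25 proteasome genes were all above the floor on a control array. Probe sets at the 5′ and 3′ ends of control transcripts, whose ratio is a usual sign of RNA integrity, differed between arrays: for beta-actin the 5′ signal, as a share of the 3′ signal, was 43.1% on the early and 9.07% on the intermediate array and 14.7% to 24.4% on the other 3, and for GAPDH 67.2%, 23.6% and 25.4% to 39.1%. Markers of lung epithelium were bright, Sftpc of alveolar type 2 cells between 48085 and 71970.

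The promoters of 4 members are shown because 24 of the 25 proteasome genes were above both controls on the intermediate array, as described further on; they were chosen after their values and motifs were seen. They are the 250 bases before the annotated start of each gene, in RefSeq assembly GRCr8, 5′ to 3′ on the strand of the gene: Psmb2 at chr5:144254808-144255057 (+), Psmb5 at chr15:32047380-32047629 (-), Psmd1 at chr9:94157721-94157970 (+) and Psme2, the gene with the largest difference among them, at chr15:33052752-33053001 (-). Capitals mark TGACNNNGC, the core of the antioxidant response element to which Nrf1 and Nrf2 bind.
Psmb2: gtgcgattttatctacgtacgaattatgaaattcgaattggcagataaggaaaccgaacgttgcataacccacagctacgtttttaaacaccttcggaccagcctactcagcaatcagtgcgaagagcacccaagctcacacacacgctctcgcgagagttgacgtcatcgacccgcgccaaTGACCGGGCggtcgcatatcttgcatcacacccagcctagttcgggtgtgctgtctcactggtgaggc
Psmb5: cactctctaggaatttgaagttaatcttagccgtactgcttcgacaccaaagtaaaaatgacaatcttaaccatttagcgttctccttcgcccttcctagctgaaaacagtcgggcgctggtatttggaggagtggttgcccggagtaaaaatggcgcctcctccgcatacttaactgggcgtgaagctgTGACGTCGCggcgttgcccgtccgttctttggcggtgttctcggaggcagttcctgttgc
Psmd1: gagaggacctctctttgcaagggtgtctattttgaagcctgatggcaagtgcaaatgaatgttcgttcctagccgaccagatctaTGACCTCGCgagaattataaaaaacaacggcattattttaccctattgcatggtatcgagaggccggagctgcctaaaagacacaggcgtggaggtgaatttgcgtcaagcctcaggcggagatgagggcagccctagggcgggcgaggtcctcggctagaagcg
Psme2: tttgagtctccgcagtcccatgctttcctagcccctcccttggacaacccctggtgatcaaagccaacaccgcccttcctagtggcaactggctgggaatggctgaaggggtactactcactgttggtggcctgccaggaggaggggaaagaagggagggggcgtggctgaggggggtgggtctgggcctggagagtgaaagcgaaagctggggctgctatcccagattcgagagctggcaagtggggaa
Psme2 held no match, which says only that these letters are not in this window. The table had promoters for 40 of the 41 members and for 24 of the 25 proteasome genes; Psma7 was not matched. With both strands searched, TGACNNNGC lay in 4 of the 24 proteasome promoters (Psmb2, Psmb5, Psmd1 and Psme4), 16.7%, against 10.1% of all 33469 promoters of the same length. CCAAT, the CCAAT box, lay in 12 of 24 (50%) against 34% of all, and in Psmb2 one match ends on the first base of the capitals. CACGTG, an E-box, lay in 3 of 24 (12.5%, against 5.59%), namely Psma4, Psmb3 and Psmc1. GAANNTTC, a heat shock element core, lay in 2 of 24 (8.33%, against 7.23%), namely Psmc3 and Psmd1. TTCNNNGAA, a STAT site core, lay in none of 24, against 7.67% of all promoters, and in Uchl1 among the other members. A match is a description of letters and no evidence of binding.

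On the intermediate array, 24 of the 25 proteasome genes were above both control arrays by some amount, 96.0%, where 46.1% of the 3667 genes above the floor were. The exception was Psme4. The differences were small. The median over the 25 was 0.40 on the log2 scale above the mean of the controls, against 0.09 for all genes above the floor and 0.15 for genes above the floor on all 5 arrays. Fold over sham ran from 1.13 (Psmc4) to 1.99 (Psme2), and fold over untreated from 0.890 (Psme4) to 1.78 (Psme2). The late array had 22 of 25 above both controls (88.0%, against 42.8% of all genes) with a median of 0.20 against 0.07. The early array had 14 of 25 (56.0%, against 33.4%) with a median of 0.14 against -0.01, and 6 of the 25 lay below both controls there, against 32.2% of all genes. On the late array none of the 25 lay below both controls (20.8% of all genes did), and on the intermediate array none did (18.8%). The background is unlike the 25: all but Psmd10 were above the floor on all 5 arrays, while 2783 of the 3667 genes were. No share was computed for those 2783. With the floor at the 60th percentile, 23 of 24 proteasome genes were above both controls on the intermediate array, against 53% of all genes. The 3 comparisons share both control arrays, so they are not independent of each other. How members were counted, as above both controls by any amount, was chosen after seeing the data.

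**Figure D1:**
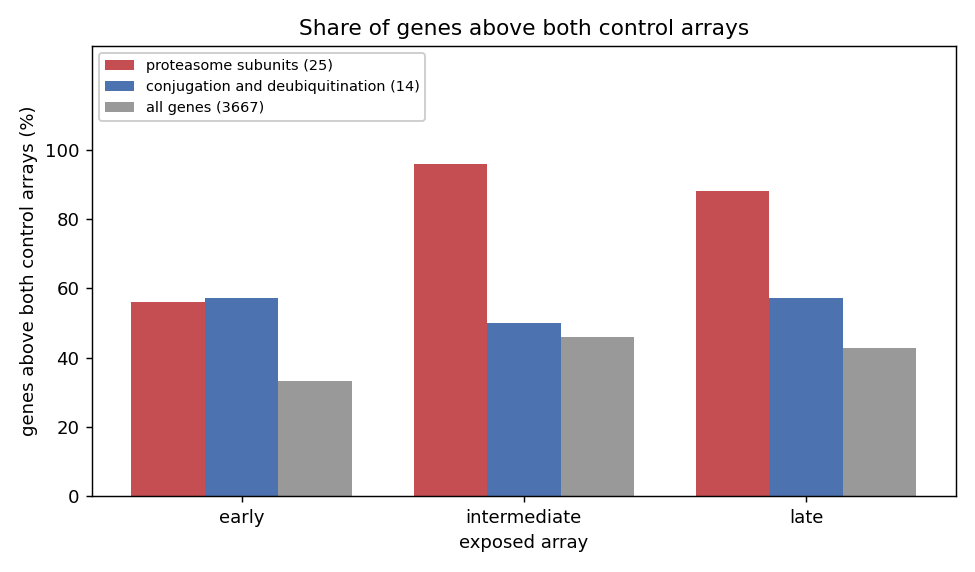
Share of genes (%) above both the sham and the untreated array by any amount, on each exposed array, for 25 proteasome genes (red), 14 genes of conjugation and deubiquitination above the floor (blue) and all 3667 genes above the floor (grey). The proteasome share was 96.0% on the intermediate array against 46.1% of all genes, while the other members stood at 7 of 14. Of the 14, Ube2e3, Ube2h and Uchl1 passed the floor only through exposed arrays and could not lie below the controls. Ube2e3 and Uchl1 are among the 7. Of the 3667 genes, 2783 were above the floor on all 5 arrays, and their share was not computed.

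No member reached 2-fold above both controls on the early, intermediate or late array, where 2.54%, 0.873% and 0.6% of all genes did, and none reached 2-fold below, where 0.3%, 0.218% and 1.04% did. At 1.5-fold, 2 of 25 passed on the intermediate array, Psmb4 and Psme2, among 4.75% of all genes, and 1 on the late array, Psme2, among 3.05%. None passed on the early array, where 6.84% of all genes did. None of the 25 was 1.5-fold below both controls on any array, against 2.97%, 1.58% and 3.46% of all genes in time order. The members' share at 1.5-fold, 2 of 39 above on each of the later arrays, was near the background, and differences smaller than that made up the rest. On the late array these were Psme2 and Uchl1, and Uchl1 passed the floor only through exposed arrays. Between the controls themselves, no member was 1.5-fold apart, where 6.44% of all genes were higher and 7.5% lower on sham. The sham minus untreated difference of the median proteasome gene was -0.07 on the log2 scale (all genes above the floor: -0.04), and 9 of 25 were higher on sham, 36% against 39.8% of all genes.

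**Figure D2:**
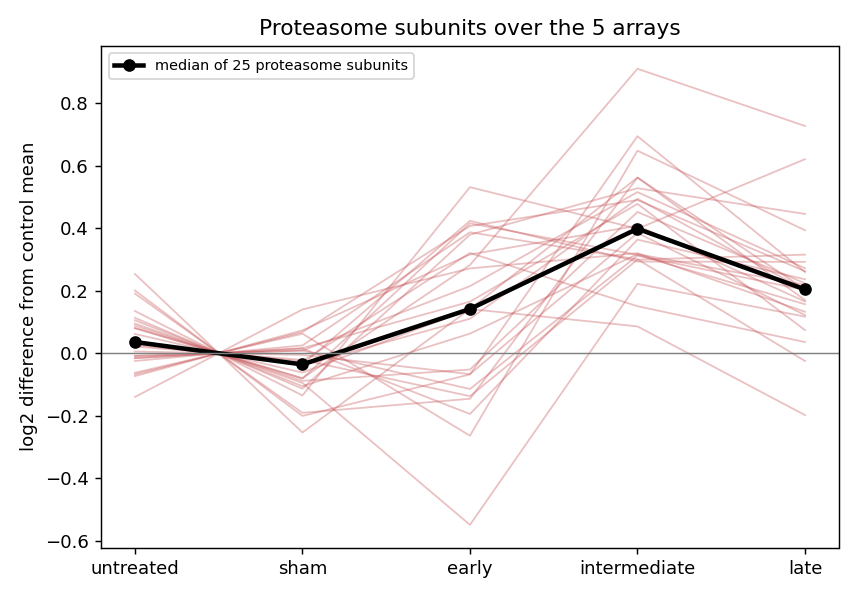
Log2 difference of each of the 25 proteasome genes (red lines) from its mean over sham and untreated, on the 5 arrays, with the median in black. The early median was 0.14, the intermediate one 0.40 and the late one 0.20. Lines join arrays of separate pools. With second probe sets, where there were such, the early and intermediate medians were nearly level, at 0.27 and 0.30.

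On the intermediate array, the proteasome median was above that of all genes under the other scalings too, but smaller in size. It was 0.40 against 0.09 as reported, 0.23 against -0.04 with values as deposited and 0.23 against 0.00 after quantile normalization. With values as deposited 21 of 25 were above both controls (30.2% of all genes were), and after quantile normalization also 21 (34.2% of all genes). On the late array the count was 14 in place of 22 under both of those settings, against 31.4% and 35.8% of all genes. The early and intermediate arrays were at the opposite ends of the 5′ to 3′ ratios given above. The part of RNA quality in these differences was not tested, beyond the pairs of probe sets described further on.

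With the chosen probe sets, all 6 alpha ring genes were above both controls on the intermediate array (46.1% of all genes were). Their log2 differences from the control mean ran from 0.29 to 0.69, with a median of 0.43. Psma7 had a scaled intensity, the scale of all single values given below, of 3931, 6668 and 4932 in time order, against 3585 on sham and 4734 on untreated. The intermediate value stands apart from the other 4, and it was 1.86-fold above sham and 1.41-fold above untreated. Another Psma7 probe set read 2347, 2395 and 2114 against 1741 and 2176, with the early and intermediate values close to each other. Psma6 read 5810, 7947 and 6624 against 6063 and 6109. Its early value was the lowest of the 5. Psma4 was above both controls at all times, at 2009, 1832 and 2138 against 1266 and 1527, with folds over sham of 1.59, 1.45 and 1.69. Psma1 read 1701, 1554 and 1553 against 1237 and 1300, so that its exposed and unexposed values did not overlap either. Nor did those of Psma5, at 2305, 3087 and 2351 against 2002 and 2182. Psma2 was 1.45-fold above sham and 1.29-fold above untreated on the intermediate array. Other Psma2 probe sets read 770 there against 783 and 777, below both controls, and 2963 against 2440 and 2413.

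All 5 beta ring genes were above both controls on the intermediate array (46.1% of all genes were), with a median of 0.36. The early median was -0.11. Psmb5, which carries the chymotrypsin-like activity, read 6789, 9997 and 9154 in time order against 7851 and 7688. Its early value was the lowest and its later values were the highest. Psmb4 followed the same order, with 14518 early, then 27328 and 22904, against 18207 on sham and 16697 on untreated, and Psmb1 read 4699, 6318 and 5853 against 5118 and 5057. The early direction depended on the probe set. For Psmb4 the other sets gave early log2 differences of 0.24 and -0.03, against -0.26 for the chosen one. For Psmb5 they gave 0.05 and 0.21, against -0.19, and Psmb1 has 1 probe set. Psmb2 read 3752, 4000 and 3380 against 3171 and 2865, above both controls at all times. Psmb3 was 1.10-fold, 1.13-fold and 0.995-fold of sham. The Psmb4 call rests on 1 of its 3 probe sets, which gave a log2 difference of 0.65 on the intermediate array; the others gave 0.20 and 0.10. It was also under 1.5-fold with values as deposited (0.48), 75th percentile scaling (0.53) and quantile normalization (0.37).

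The 19S ATPases, which unfold substrates, had their highest median both early and at the intermediate time, 0.32 on each, and 0.16 late. All 5 were above the mean of the controls on each exposed array, where 1643, 2193 and 2129 of all 3667 genes were in time order. Psmc1 read 3028, 3207 and 2739 against 2393 on sham and 2179 on untreated. All 3 exposed values were above both control values. Psmc2 read 1983, 1849 and 1657 against 1405 and 1572, and was 1.41-fold above sham early. Psmc3 was 1.34-fold above sham on the intermediate array and 0.971-fold of untreated on the early one. Psmc4 and Psmc5 were above both controls on all 3 exposed arrays, Psmc4 by no more than 1.27-fold and Psmc5 by up to 1.41-fold.

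The genes with a Psmd symbol, grouped here as 19S non-ATPases, had the highest median of the 5 proteasome groups on the intermediate array, 0.51. Psmd11 read 3558, 3944 and 3725 in time order against 2528 and 2958. Its exposed values were all above its control values and close to each other. Psmd2 read 2520, 3105 and 2623 against 2185 and 2159, and Psmd1 3650, 4763 and 3890 against 3291 and 3474. Both showed their highest value on the intermediate array. Psmd4, a ubiquitin receptor, read 2048, 3346 and 2611 against 1985 and 2586, which put it 1.69-fold above sham but 1.29-fold above untreated. Another Psmd4 probe set disagreed late, at 781 against 1652 and 1569, a difference of -1.04. Psmd13 stood apart early: it read 1026 against 1406 and 1604, a difference of -0.55, and 1752 and 1629 on the later arrays. Psmd10 read between 152 and 230, near the floor.

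**Figure D3:**
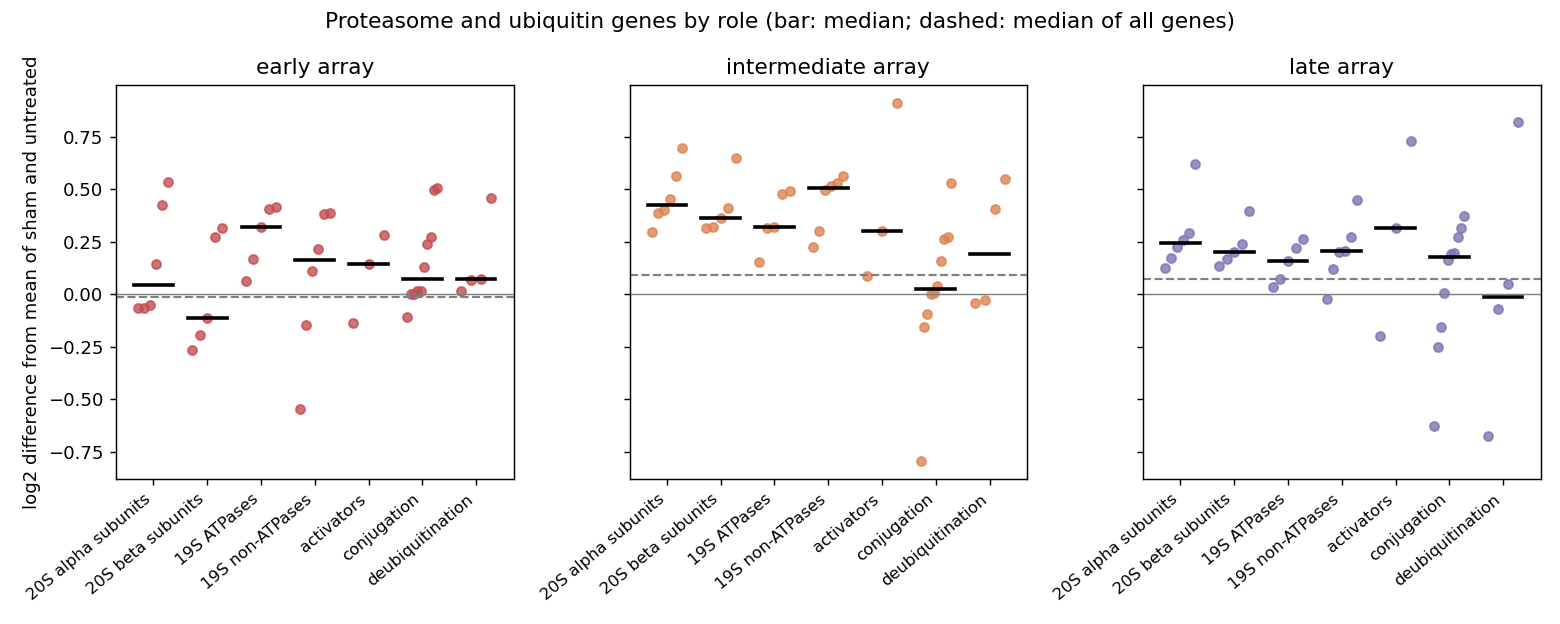
Log2 difference from the mean of sham and untreated for 39 members above the floor, by role, on each exposed array. Points are genes, black bars are group medians and the dashed line is the median of all genes above the floor. On the intermediate array all 22 genes with a Psma, Psmb, Psmc or Psmd symbol lie above 0, with medians of 0.43, 0.36, 0.32 and 0.51. Of all 3667 genes above the floor 2193 do, and 1887 of the 2783 above it on all arrays. The conjugation genes have a median of 0.02 there.

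Among the activators, Psme2, the beta chain of PA28, had the largest difference of the proteasome genes on the intermediate and the late array. It read 911, 1409 and 1241 in time order against 709 on sham and 792 on untreated. The intermediate and late values were above 1.5-fold of both controls, at 1.99-fold and 1.78-fold for the intermediate and 1.75-fold and 1.57-fold for the late array. With values as deposited, the late difference of 0.73 became 0.61 and was no longer 1.5-fold over both. Psme1, the alpha chain of the same ring, read 9905, 13411 and 13559 against 10735 and 11059, thus 1.25-fold and 1.21-fold higher on the intermediate array and below both controls early. Another Psme1 probe set read 6890, 6680 and 8357 against 6864 and 5941, above both controls early and between them on the intermediate array. With the chosen set, the log2 difference on the intermediate array was 0.30, against 0.91 for Psme2, and with the other it was 0.07. Psme4, which encodes PA200, read 762, 733 and 602 against 579 and 824, within the range of the controls on all 3 arrays. The immunoproteasome subunits Psmb8 and Psmb9, no members here, read 2787, 3197 and 3437 against 2791 and 2640, and 2454, 3581 and 3808 against 2754 and 3138, so both were above both controls on the intermediate and late arrays. Of 18 measured genes of interferon response and antigen presentation, with Psmb8 and Psmb9 among them, 10 were above both controls on the intermediate array (46.1% of all genes were) and 12 on the late one (42.8%). The chemokine Cxcl10 passed 2-fold above both on the late array, while Stat2, a transducer of interferon signals, was 1.5-fold below both there, at 730 against 1233 and 1368; Stat2 was named after its values were seen.

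Of the 12 conjugating and ligating genes, 10 were above the floor, of which 7, 6 and 7 were above the mean of the controls in time order, where 1643, 2193 and 2129 of all 3667 genes were. The medians of the 10 were 0.07, 0.02 and 0.18 in time order. Ube2e3 and Ube2h passed the floor only through exposed arrays and could not lie below the controls. Ube2e3 is among the 6, and both are among the late 7. Ube2g2, an E2 of degradation at the endoplasmic reticulum, read 1064, 1082 and 972 against 862 and 654. Its exposed values were above both controls, and sham was 1.32-fold above untreated. Ube2a read 1334, 1475 and 1518 against 1122 and 1327, with the early value level with untreated. Ube2b, its close paralog, stayed between 2450 and 2782 on all arrays. Ube3a, the E6-associated E3 ligase, read 322, 200 and 398 against 332 and 363. It was the single member 1.5-fold below both controls (1.58% of all genes were), by a log2 difference of -0.80 on the intermediate array, near the floor. Ube2d2 read 798, 618 and 427 against 616 and 709, with its lowest value late. A near-identical family makes the identity of Ube2d2 uncertain. Ube2g1 was above the floor on the early array at 272 and on untreated at 215.

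Among the deubiquitinases, Usp37, which acts in the cell cycle, read 965, 1025 and 439 in time order, against 635 on sham and 776 on untreated. The late array was low and the other exposed arrays were high, and Usp37 was the one member at least 2-fold below both other phases late (1.23% of all genes were), 2.20-fold below early and 2.34-fold below intermediate. It has 1 probe set, made from an expressed sequence tag. Uchl1, a ubiquitin hydrolase abundant in neurons, read 174, 228 and 304 on the exposed arrays and lay under the floor on both controls, with values of 36.5 and 37.2. It was at least 1.76-fold above both on the late array. Its 2 other probe sets lay under the floor on all arrays. The neuroendocrine and neuronal markers, of which 5 of 8 measured were above the floor, had a summed intensity of 908, 866 and 690 on the exposed arrays against 1012 and 852. Usp19 read between 1305 and 1439 and Usp40 between 701 and 865 on the 5 arrays.

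**Figure D4:**
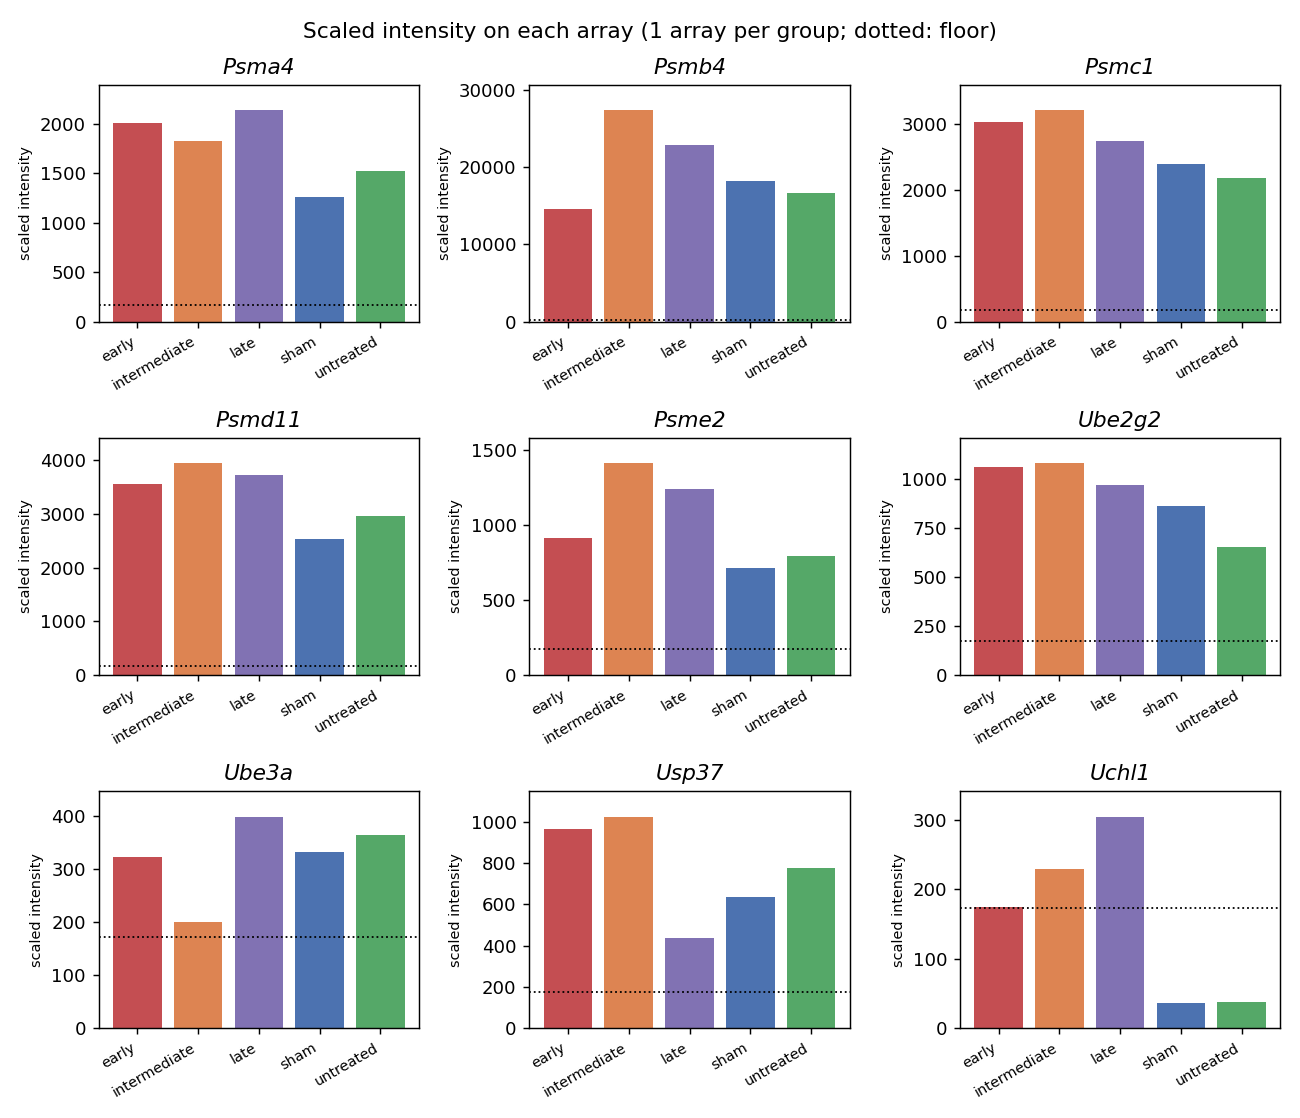
Scaled intensity of 9 members on each array, with 1 array per group and the floor as a dotted line. Psma4, Psmc1, Psmd11, Psme2 and Ube2g2 have all exposed values above both controls, Psmb4 is lowest early, Ube3a is lowest on the intermediate and Usp37 on the late array.

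All 3 exposed arrays were above both unexposed arrays for 12 of the 25 proteasome genes, against 14.2% of all genes: Psma1, Psma4, Psma5, Psmb2, Psmc1, Psmc2, Psmc4, Psmc5, Psmd1, Psmd11, Psmd2 and Psme2. Among the other members above the floor these were Ube2a, Ube2g2 and Uchl1, of which Uchl1 passed the floor only through the exposed arrays and so had to lie above the controls. With values as deposited the count was 8 of 25, against 7.76% of all genes. No member had all exposed arrays below both unexposed arrays (6.03% of all genes did). In limma, which tests the mean of the 3 exposed against the 2 unexposed arrays, no member and no gene of the 3667 had a Benjamini-Hochberg adjusted p under 0.05. At an unadjusted p under 0.05 the fit gave 6 of 39 members, all higher (4.8% of all genes were higher and 2.18% lower at that level). These were Psma4 with a log2 difference of 0.52 ± 0.16 (SE; limma adjusted p = 0.663), Psmd11 with 0.45 ± 0.15 (0.698), Psme2 with 0.64 ± 0.22 (0.698), Ube2g2 with 0.47 ± 0.17 (0.698), Psmc1 with 0.39 ± 0.15 (0.698) and Psma1 with 0.34 ± 0.13 (0.698). Each was higher on 3 of 3 exposed arrays than on both controls. The p-values measure the spread between these arrays, in which the times are part of the error.

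Compared with each other and without the controls, the phases differed in the order of the proteasome genes. On the intermediate array 18 of 25 were above both other phases, 72% against 38.2% of all genes, and on the early array 15 of 25 were below both, 60% against 41.5%. These counts used the chosen probe sets and were not repeated with others. For Psma5, Psma7, Psmb2, Psmb3, Psmb5, Psmd1, Psmd2, Psmd4 and Psme1 the chosen name ends in _g_at, a kind described below. For Psma2, Psmb1, Psmb4, Psmd11 and Psmd13 the chosen set was made from an expressed sequence tag. Among the phases, the other Psme1 set above the floor read lowest on the intermediate array. Above the floor, some other sets of Psma2, Psma5, Psmb2, Psmb4 and Psmd4 read highest early. Some of Psma7, Psmb3, Psmb4, Psmb5, Psmd1 and Psmd4 read highest on the intermediate array. At 1.5-fold, Psmb4 and Psmd13 were below both other phases early (5.54% of all genes), Ube2g1 above both early (5.4%), Ube3a below both at the intermediate time (1.94%) and Usp37 below both late (3.46%), while no member was above both other phases on the intermediate (3.16%) or late array (1.36%). With its chosen probe set Psmb4 was 1.88-fold higher on the intermediate than on the early array, and Psmd13 was 1.71-fold higher.

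Pairs of probe sets made to the same sequence gave unequal sizes for the same member. Of 11 such pairs with both sets above the floor on all arrays, the set whose name ends in _at gave the higher difference from the controls for 10 of 11 on the early array and for 1 of 11 on the intermediate array. Over all 470 such pairs of the array it was 71.1% early and 31.3% at the intermediate time. The median gap for the members was 0.27 early and -0.23 at the intermediate time, against 0.21 and -0.13 for all pairs. For Psma7 the pair gave 0.27 and -0.07 early and 0.30 and 0.69 at the intermediate time; for Psma5 it gave 0.51 and 0.14, then 0.17 and 0.56. The gaps had opposite signs on the arrays with the highest and the lowest 5′ to 3′ ratios, and the part of RNA quality in them was not tested. Where a second probe set was above the floor on all arrays, as for 11 proteasome genes, reading it in place of the first gave 19 of 25 above both controls early (36.1% of all genes in that setting) and 22 of 25 on the intermediate array (42.6%). The medians were 0.27 and 0.30, against 0.00 and 0.07 for all genes. With the first probe sets the early and intermediate medians were 0.14 and 0.40, against -0.01 and 0.09 for all genes. With the second ones they were nearly level. The height of the intermediate over the early median thus depends on the choice of probe set.

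**Figure D5:**
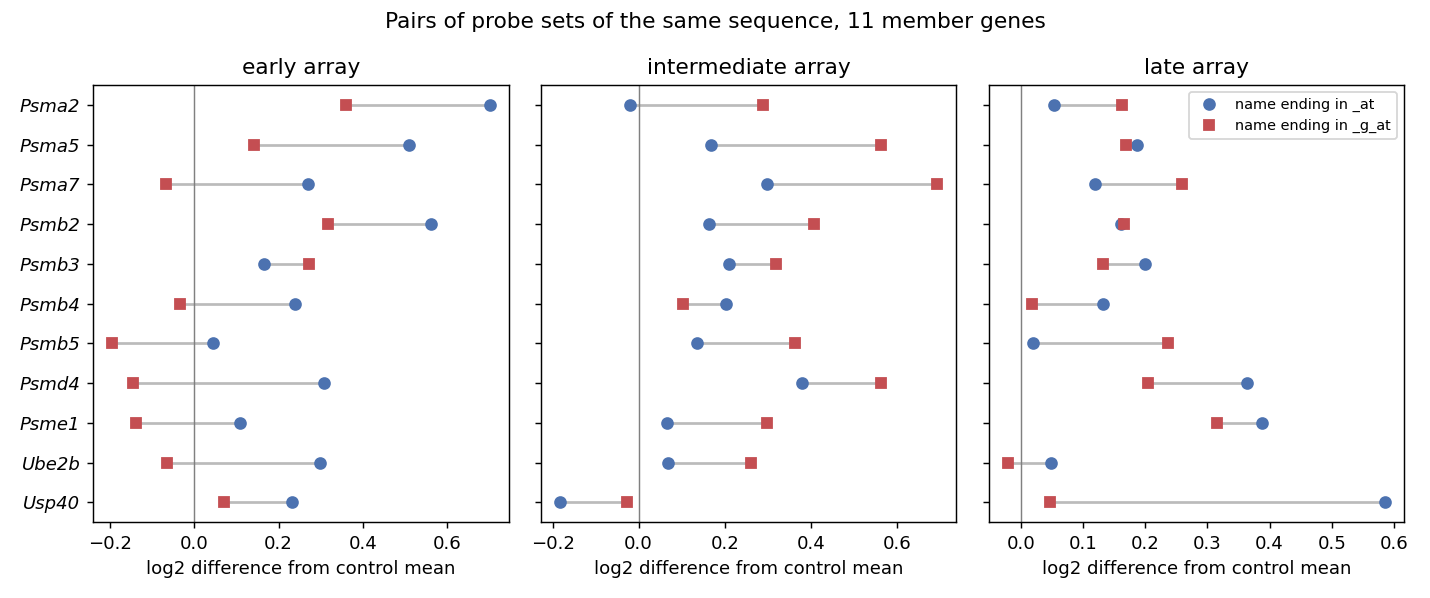
Log2 difference from the average of sham and untreated for 11 members read by a pair of probe sets of the same sequence (blue circles, name ending in _at; red squares, name ending in _g_at) on the 3 exposed arrays. The blue circles lie to the right for 10 of 11 genes on the early array and for 1 of 11 on the intermediate array.

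Partners of these genes were counted from lists chosen with earlier results of these data known. Of 23 listed proteasome partners 7 were measured, Psmb8 and Psmb9 among them. Early, 3 were above both controls (33.4% of all genes were), and all 7 were on the intermediate (46.1%) and the late array (42.8%). None passed 2-fold. Pomp, the chaperone of core assembly, read 5799, 9024 and 7687 against 6646 and 7048, below both controls early and above both later. Sem1, a small 19S subunit, read 3966, 4770 and 5034 against 3530 and 4262. Of the modifiers and their activating enzymes 2 were measured, and neither passed 2-fold: Nedd8, a ubiquitin-like modifier, was 1.51-fold and 1.49-fold above the controls on the intermediate array, and Nae1, which activates it, 1.44-fold and 1.78-fold early. Of 13 ligases above the floor none passed 2-fold, with medians of 0.10, 0.17 and 0.13 in time order. Huwe1 read 2821, 3304 and 3311 against 2919 and 3137, and Trim3 2122, 2247 and 2323 against 2090 and 1885. Of 5 other deubiquitinases and isopeptidases none passed 2-fold; Cops7a, a COP9 signalosome subunit, was 2.15-fold and 1.73-fold above the controls early and 0.634-fold and 0.510-fold of them on the intermediate array. Brcc3 read 1182, 1355 and 1373 against 1115 and 1239. Of 19 chaperone and heat shock genes above the floor, 17 were above both controls early (33.4% of all genes), 18 at the intermediate time (46.1%) and 14 late (42.8%). Their medians were 0.34, 0.75 and 0.37. At 2-fold above both, 3 passed early (2.54% of all genes), 2 at the intermediate time (0.873%) and none late (0.6%). Hspa1a, the inducible Hsp70, read 11637, 788 and 557 against 615 and 327, so its early value was far above the other 4. Hmox1, the heme oxygenase induced by oxidative stress, read 15565, 7293 and 4583 against 4745 and 1700, with the controls far apart. Hsph1, an Hsp110 co-chaperone, was 3.48-fold and 3.43-fold above the controls early and 2.15-fold and 2.11-fold at the intermediate time. Hspa5, the chaperone of the endoplasmic reticulum, was highest on the intermediate array, 2.41-fold and 2.73-fold above the controls.

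Markers of other cell types also differed between the arrays. The summed intensity of 3 neutrophil markers above the floor, of 7 listed, was 5928, 5480 and 3617 on the exposed arrays against 2567 on sham and 1977 on untreated. That of 5 macrophage markers, of 9 listed, was 47795, 68045 and 68002 against 54348 and 49956, most of it from Lyz2. Early, 3 of these 5 (Cd14, Fcgr2b and Mmp12) were at least 1.5-fold above both controls, where 6.84% of all genes were. The median log2 differences of the 5 were 1.03, 0.55 and 1.40 in time order. The 4 alveolar type 2 markers above the floor, of 6 listed, had medians of -0.03, 0.42 and 0.36, where the proteasome genes had 0.14, 0.40 and 0.20. Of these markers 0, 3 and 4 were above both controls, where 33.4%, 46.1% and 42.8% of all genes were. The marker sums were 135771, 180083 and 176683 against 148888 and 135666. The summed intensity of 6 markers of dividing cells, of 8 listed, was 9232, 14242 and 13760 against 8976 and 10282. Their median log2 differences were -0.09, 0.74 and 1.08, so the median was highest late and the sum on the intermediate array. The summed intensity of 6 heart muscle markers was 14060, 24264 and 9790 against 20839 and 37980. The medians were 0.60, -0.28 and -0.30 for 4 endothelial markers, -0.61, -0.74 and -0.45 for 2 club cell markers, -0.90, -0.99 and -1.38 for 4 fat markers, -0.25, -0.31 and 0.01 for 5 lymphoid markers and 0.27, -0.04 and 0.22 for 3 alveolar type 1 markers. Of the measured neutrophil, macrophage and dividing cell markers, Cxcr2 and Csf1r were under the floor on all arrays, and none of the other measured markers was. In pooled bulk RNA, more cells of a type and more RNA per cell cannot be told apart, and the part of these markers in the proteasome differences was not tested.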

How the data were processed

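Each of 5 arrays held pooled lung RNA of 1 group, per the labels, and each group was taken from the array title. The authors deposited 1 linear intensity per probe set and array (8799 probe sets); which algorithm made them was not given in the sources used here; depth has no counterpart beyond the number of arrays. After removal of 59 control probe sets, deposited intensities were scaled to a common median (factors 0.931 to 1.07), floored at the 40th percentile and taken to log2. Symbols came from the platform annotation, and all 41 members kept theirs in the RefSeq table. Single arrays were compared by a fold rule (1.5 and 2) without a test, and 3 exposed with 2 unexposed arrays by limma 3.58.1 (R 4.3.3, lmFit and eBayes, Benjamini-Hochberg over 3667 genes, threshold 0.05). The limma fit was also run on simulated gene values, which did not pass through scaling, floor or choice of probe set. The limma p-values reflect only how these 5 arrays vary. Alternatives changed scaling, floor, probe set, filter, variance prior and arrays. Members, lists and tests were chosen with earlier results of these data known. Members were named in full if 1.5-fold away from both controls, brightest in their role or among the 5 smallest limma p. Others, namely Psma1, Psma2, Psma5, Psma7, Psmb1, Psmb2, Psmb3, Psmb5, Psmc2 to Psmc5, Psmd2, Psmd4, Psmd10, Psmd13, Psme4, Ube2a, Ube2d2, Ube2g1, Usp37 and Usp40, were named after their values were seen.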

Additional observations from a re-analysis of the deposited data

Results flagged for a closer look

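For 9 members an exposed array lay above both controls and another below both, by at least 0.1 from their mean on the log2 scale. The share of all genes that meet this rule was not counted, so the 9 are not set apart from other genes. With 1 array per time this difference was not tested. The intermediate array exceeded the early one by 0.43 for Psmb1, 0.91 for Psmb4, 0.56 for Psmb5 and 0.77 for Psmd13, and the late array exceeded the early one by 0.45 for Psme1; other probe sets of Psmb4, Psmb5 and Psme1 were above the mean of the controls early, by 0.24, 0.21 and 0.11. The early array exceeded the late one by 0.90 for Ube2d2. The intermediate array exceeded the late one by 0.51 for Ube2q2 and 1.22 for Usp37, and the late array exceeded the intermediate one by 0.99 for Ube3a. Outside the chosen probe sets, 1 of Psma2 read 1268 on the early array against 783 and 777, 1.62-fold above sham, where the chosen set gave 1.03-fold.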

How the results depend on the processing

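Over the settings tried, 123 recomputed values stayed near the reported ones and 45 moved. A count was taken as near if the larger was at most 1.5-fold the smaller or both were 0, and a count has no sign to reverse. The 123 include counts of 0 set against 0, for limma and for sham against untreated. Results on the proteasome genes were counted beside those on all members. A median was taken as near if it moved by less than the median sham minus untreated difference (-0.07, sign ignored) over the square root of 2. No recomputed median of the members or of the proteasome genes changed sign. No member passed the limma threshold in any of 17 settings, the fits leaving out each array included (0 to 0), and the count at an unadjusted p under 0.05 ran from 0 with values as deposited to 8 without the early array; with no filter on low values, 1 gene that is no member passed. The median difference of the members on the early array, 0.13, was 0.0421 as deposited, 0.0078 with 75th percentile scaling, 0.0217 after quantile normalization, 0.27 without EST probe sets, 0.24 with the second probe set and 0.0342 against untreated only; for the proteasome genes, 0.14 became 0.0487, 0.0205, 0.0526, 0.21, 0.27 and 0.0793. The early median of all genes was lower too with the scalings, at -0.093, -0.113 and -0.067 in place of -0.01. On the intermediate array the members' 0.32 became 0.16, 0.20 and 0.18 with these scalings, 0.37 with the floor at the 60th percentile and 0.26 with the second probe set, and the proteasome genes' 0.40 became 0.23, 0.28 and 0.23, 0.30 with the mean of probe sets and 0.30 with the second. On the late array the members' 0.20 became 0.0879, 0.14 and 0.0740 with the scalings and 0.14 against untreated only, and the proteasome genes' 0.20 became 0.0898, 0.14 and 0.0770; the number above both controls became 14 as deposited and 14 after quantile normalization, from 22. The count of members 1.5-fold from both controls, 0 early, was 1 with 75th percentile scaling, quantile normalization or the floor at the 20th percentile; the intermediate count, 3, was 1 without EST probe sets and 0 at 2-fold; the late count, 2, was 4 with 75th percentile scaling and with quantile normalization, 1 with the floor at the 60th percentile or without EST probe sets and 0 at 2-fold. Members 1.5-fold apart between the controls, 0, were 1 with the second probe set. Members 1.5-fold from both other phases, 5, were 3 with the floor at the 60th percentile, 1 without EST probe sets and 1 at 2-fold. Without the untreated array the lowest limma adjusted p of a member was 0.276 (Psmd11). Ube3a and Uchl1 gave no value without EST probe sets or at the higher floor. The EST and second probe set settings, and all results on the 25 proteasome genes alone, were chosen after seeing the data. The median of all genes on the intermediate array moved by over 0.1 with values as deposited, from 0.09 to -0.04; the causes of the other changes were not tested. Small differences near the floor are limited by signal. No paired analysis was possible because each group has 1 array and the labels give no replicate numbers.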
